A study of Mus musculus with 9 samples.

Results

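Angiopoietins and vascular endothelial growth factors (VEGFs) are secreted signals that act on the lining of vessels. Their genes and those of their receptors were followed here in 3 stromal populations of mouse subcutaneous fat. The group holds 10 genes of 20655 in the deposited tables, found by matching Ensembl identifiers, without their version, to gene symbols. There are 6 ligand genes, Angpt1, Angpt2, Vegfa, Vegfb, Vegfc and Vegfd, and 4 receptor genes, Tek, Tie1, Kdr and Flt1. All 10 were present in the tables, and all 10 had an adjusted p in every comparison, so none was lost to a filter on low values.

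Inguinal and axillary white adipose tissue was taken from wild type C57BL/6 mice of both sexes at 12 days of age, and its cells were sorted by flow cytometry into DPP4+, ICAM1+ and CD142+ populations. CD142 is tissue factor, the product of F3. RNA from 3 libraries of each population was sequenced in bulk, and the study compared the populations in pairs. No treatment or allele separates the groups. No label ties a library to an animal, so p-values here reflect only how far libraries spread, which could be technical, and the labels do not say whether endothelial or blood cells were gated out. The sort genes followed the labels. Dpp4 had a fitted level of 5466 normalised counts in DPP4+ cells, 89.9 in ICAM1+ cells and 729 in CD142+ cells. Icam1 was at 1162, 7966 and 7058 in the same order, and ICAM1+ and CD142+ cells did not differ in it (log2 fold change 0.17, adjusted p = 0.63, Wald test). F3 was at 243, 310.5 and 1469.

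In blood vessels, angiopoietin 1 from perivascular and mesenchymal cells activates the receptor TIE2, the product of Tek, and steadies the vessel wall, whereas angiopoietin 2 is a context-dependent ligand of the same receptor that can oppose it. VEGF-A acts through the receptors encoded by Kdr and Flt1 to drive the growth of blood vessels, and VEGF-C and VEGF-D are best known for the growth of lymphatic vessels. Many of these ligands, though not all, are typically made by stromal cells, and the receptors by endothelial cells. In growing fat the expansion of the capillary bed accompanies the formation of adipocytes.

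Levels below are fitted levels, the population means that follow from the deposited mean over 9 libraries and the deposited fold changes, in counts normalised for library size, with 95% intervals computed from the deposited standard errors. A gene was called higher or lower at a deposited adjusted p under 0.05 (Wald test, adjusted over all genes of the table). In sorted bulk samples, fewer cells of a type and less RNA per cell cannot be told apart.

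CD142+ cells had the highest levels of Angpt1, Angpt2 and Vegfc, DPP4+ cells had by far the highest level of Tek, and ICAM1+ cells had the highest levels of Tie1 and Kdr. Vegfa was abundant in all 3 populations, and its largest difference was 1.40-fold, with ICAM1+ cells above CD142+ cells. Vegfb and Vegfd passed the test in no comparison. Between ICAM1+ and DPP4+ cells 5 of the 10 genes were called, 4 higher and 1 lower in ICAM1+ cells, where 24.4% of 17851 tested genes were called, 12.4% higher and 12.0% lower. Between CD142+ and DPP4+ cells 5 were called, 3 higher and 2 lower in CD142+ cells, against 19.0% of 17450 genes, 10.1% higher and 8.91% lower. Between ICAM1+ and CD142+ cells 6 were called, 3 in each direction, against 9.05% of 15848 genes, 3.77% higher and 5.28% lower. The 10 genes all had means above 50, and among the 10138 genes whose mean reached 50 the shares called were 34.3%, 26.2% and 12.1% in the same order. The median log2 fold change over the 10 genes was 0.35, -0.11 and 0.29, where that of all tested genes was 0.02, -0.01 and -0.00. The 3 comparisons share libraries, so their counts are not independent.

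**Figure D1:**
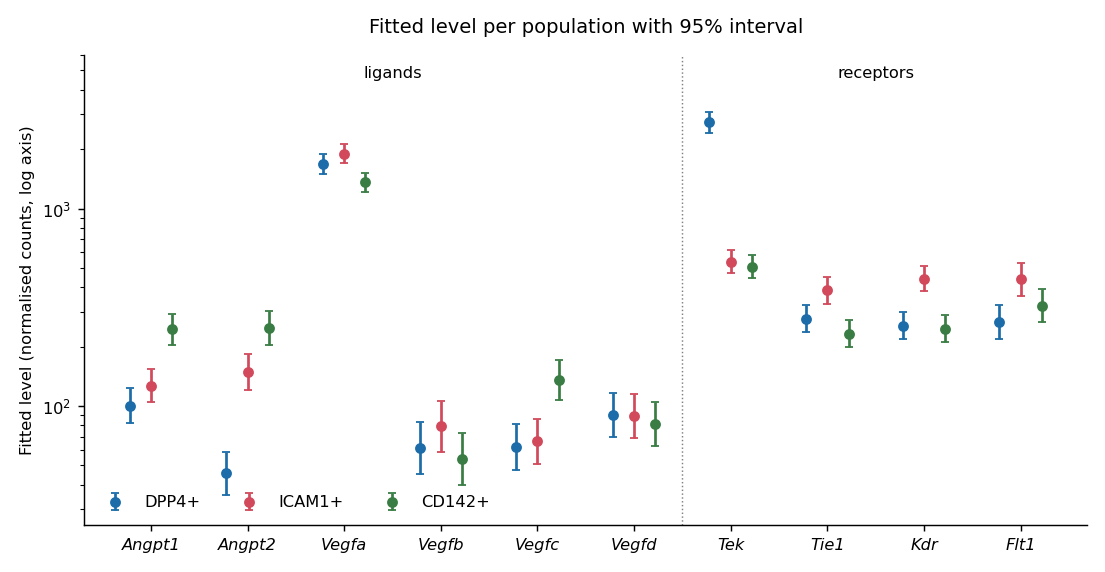
Fitted level of each ligand and receptor gene in DPP4+, ICAM1+ and CD142+ cells, in normalised counts on a log axis; points are population means of 3 libraries and bars are 95% intervals. Tek stands at 2733 in DPP4+ cells and at 539 and 507 in ICAM1+ and CD142+ cells, and Angpt1, Angpt2 and Vegfc are highest in CD142+ cells.

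Angpt2 showed the widest range of the ligands. Its level was 45.5 normalised counts (95% interval 35.4 to 58.6) in DPP4+ cells, 149 (121 to 183) in ICAM1+ cells and 249 (204 to 303) in CD142+ cells. The 3 intervals did not overlap, and all 3 pairs passed the test. CD142+ cells were 5.47-fold above DPP4+ cells (log2 fold change 2.45 ± 0.24 (SE), adjusted p = 1.87e-23). ICAM1+ cells were 3.27-fold above DPP4+ cells (1.71 ± 0.24, adjusted p = 3.25e-11). ICAM1+ cells were below CD142+ cells by a smaller step (-0.74 ± 0.21, adjusted p = 0.00767). Angpt2 lies on chromosome 8 (mm10, 18690263 to 18741562, minus strand) inside Mcph1, which is on the other strand, and no exon bases of the pair overlap. Mcph1 itself had a mean of 33.2 and was called in none of the comparisons.

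Angpt1 had the same order of populations, with a smaller range. Its level was 100.4 (82.1 to 123) in DPP4+ cells, 127 (104 to 154) in ICAM1+ cells and 245 (205 to 292) in CD142+ cells. DPP4+ and ICAM1+ cells overlapped and were not distinguished (0.33 ± 0.21, adjusted p = 0.256, 95% interval of the log2 fold change -0.07 to 0.74), and both were below CD142+ cells. CD142+ cells were 2.44-fold above DPP4+ cells (1.28 ± 0.20, adjusted p = 2.08e-09) and 1.93-fold above ICAM1+ cells, which were lower by 0.95 on the log2 scale (adjusted p = 3.93e-05). Of the exon bases of Angpt1 (chromosome 15, 42424723 to 42676977, minus strand), 14.2% lie under exons of the antisense gene Gm17473, whose reads cannot be told apart from those of Angpt1 without strand information. Gm17473 had a mean of 22.6 and was called in no comparison.

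The balance of the pair differed between populations. Per kilobase of exon, Angpt1 stood above Angpt2 in DPP4+ cells, with a ratio of 1.56 (95% interval 1.13 to 2.16). In ICAM1+ cells the ratio was 0.603 (0.454 to 0.802), and in CD142+ cells it was 0.696 (0.534 to 0.909). The interval of DPP4+ cells lay above 1 and those of the other two populations below it. These intervals treat the errors of the genes as independent. They leave out any error of the exon lengths, 5205 bases for Angpt1 and 3690 for Angpt2, on which the side of 1 depends. Before division by length, the intervals of the pair overlapped within ICAM1+ cells and within CD142+ cells, and not within DPP4+ cells. The difference in ratio between populations does not depend on these lengths.

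Vegfc, the main growth factor of lymphatic vessels, had the same order as Angpt1. Its level was 62.0 (47.5 to 80.8) in DPP4+ cells, 66.2 (51.0 to 86.0) in ICAM1+ cells and 135 (107 to 172) in CD142+ cells. CD142+ cells stood alone, and the other two populations overlapped over nearly their whole intervals. CD142+ cells were 2.19-fold above DPP4+ cells (1.13 ± 0.26, adjusted p = 0.000183). ICAM1+ cells were lower than CD142+ cells (-1.03 ± 0.26, adjusted p = 0.00166). The difference between ICAM1+ and DPP4+ cells was 0.10 ± 0.27 (adjusted p = 0.862, 95% interval -0.44 to 0.63). The gene spans 54077606 to 54187096 on chromosome 8, plus strand. The 250 bases before its RefSeq start (GRCm38.p6, chr8:54077282-54077531, plus strand) are shown because Vegfc is one of the genes that were highest in CD142+ cells. Capitals mark the GC box GGGCGG, here on the other strand as CCGCCC.
Vegfc: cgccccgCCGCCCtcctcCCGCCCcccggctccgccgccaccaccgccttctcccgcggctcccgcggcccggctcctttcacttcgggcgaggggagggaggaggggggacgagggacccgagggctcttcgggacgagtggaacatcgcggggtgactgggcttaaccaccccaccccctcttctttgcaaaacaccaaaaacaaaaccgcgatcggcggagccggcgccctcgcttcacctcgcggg
The window was 71.6% G or C and held 2 GC boxes, a motif found on either strand in 32.7% of 32851 windows of the same length. It held none of the other motifs searched on both strands, the ETS family cores CCGGAA and CAGGAA, the hypoxia element cores ACGTG and GCGTG and the TATA box TATAAA. A match is a run of letters and not a bound site.

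Vegfa, the main growth factor for blood vessels, was the most abundant ligand in every population. Its level was 1682 (1502 to 1883) in DPP4+ cells, 1894 (1693 to 2119) in ICAM1+ cells and 1355 (1210.3 to 1517) in CD142+ cells. ICAM1+ cells were 1.40-fold above CD142+ cells (0.48 ± 0.12, adjusted p = 0.000944). The difference between ICAM1+ and DPP4+ cells did not pass the test (0.17 ± 0.12, adjusted p = 0.322). CD142+ cells were slightly below DPP4+ cells (-0.31 ± 0.12, adjusted p = 0.0429), and that call was lost when p was adjusted over every gene (adjusted p = 0.0507) and also after re-centring combined with that adjustment (adjusted p = 0.139). Per kilobase of exon, Vegfa stood 15.5-fold (11.6 to 20.7) above Vegfc in DPP4+ cells, 16.3-fold (12.3 to 21.7) in ICAM1+ cells and 5.72-fold (4.4 to 7.43) in CD142+ cells. The ratio in CD142+ cells lay below the intervals of the other two.

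Vegfb and Vegfd, a FLT1 ligand and a ligand of lymphatic receptors, were measured at low levels in every population. Vegfb was at 61.1 (45.1 to 82.8), 78.9 (58.7 to 106) and 53.9 (39.8 to 73.0) normalised counts in DPP4+, ICAM1+ and CD142+ cells. Vegfd was at 90.2 (69.8 to 117), 89.0 (68.9 to 115) and 80.8 (62.6 to 104). All intervals of each gene overlapped, and in no comparison was the unadjusted p of either under 0.05 (DESeq2's Wald test). The adjusted p was between 0.351 and 0.803 for Vegfb and between 0.789 and 0.975 for Vegfd. A p above the threshold does not show equal levels. For Vegfd, the 95% interval of ICAM1+ against DPP4+ cells ran from 0.686-fold to 1.42-fold. For Vegfb, it ran from 0.845-fold to 1.97-fold.

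**Figure D2:**
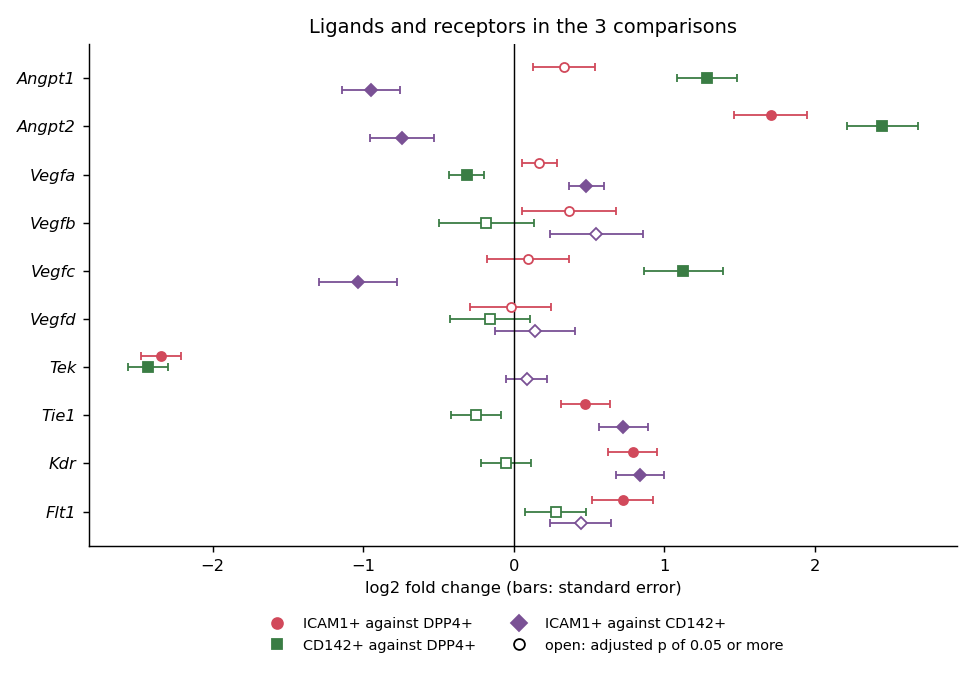
log2 fold change of each ligand and receptor gene in the 3 comparisons, with bars of 1 standard error; filled symbols have an adjusted p under 0.05 and open symbols do not. Angpt1, Angpt2 and Vegfc lie right of 0 for CD142+ against DPP4+ cells and left of 0 for ICAM1+ against CD142+ cells, while Tek is below -2 in both comparisons with DPP4+ cells.

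Among the receptors, Tek did not follow the other 3 genes. It encodes TIE2, the angiopoietin receptor of endothelial cells. Its level was 2733 (2415 to 3092) in DPP4+ cells, 539 (473 to 615) in ICAM1+ cells and 507 (445 to 578) in CD142+ cells. DPP4+ cells stood far above the others, which overlapped. DPP4+ cells were 5.07-fold above ICAM1+ cells (log2 fold change of ICAM1+ against DPP4+ cells -2.34 ± 0.13, adjusted p = 2.76e-67) and 5.39-fold above CD142+ cells (-2.43 ± 0.13, adjusted p = 1.53e-72). ICAM1+ and CD142+ cells did not differ beyond their error (0.09 ± 0.14, adjusted p = 0.841, 95% interval -0.18 to 0.35). Tek spans 94739289 to 94874976 on chromosome 4, plus strand, and none of its exon bases overlap another gene.

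Kdr encodes VEGFR2, the main signalling receptor for VEGF-A. Its level was 256 (218 to 299.6) in DPP4+ cells, 442 (380.3 to 514) in ICAM1+ cells and 247 (211 to 289) in CD142+ cells. ICAM1+ cells stood above the other two, which overlapped. They were 1.73-fold above DPP4+ cells (0.79 ± 0.16, adjusted p = 1.09e-05) and 1.79-fold above CD142+ cells (0.84 ± 0.16, adjusted p = 7.19e-06). The difference between CD142+ and DPP4+ cells was -0.05 ± 0.16 (adjusted p = 0.908).

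Tie1, which encodes a receptor that pairs with TIE2 in endothelial cells, had the same order. Its level was 277 (237 to 325) in DPP4+ cells, 385 (330.2 to 449.5) in ICAM1+ cells and 233 (198 to 273) in CD142+ cells. ICAM1+ cells were 1.39-fold above DPP4+ cells (0.47 ± 0.16, adjusted p = 0.0178) and 1.66-fold above CD142+ cells (0.73 ± 0.16, adjusted p = 0.000254). CD142+ and DPP4+ cells overlapped (-0.25 ± 0.17, adjusted p = 0.346).

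Flt1, the high-affinity VEGF receptor that also acts as a decoy, was at 265 (217 to 323) in DPP4+ cells, 438 (361 to 531) in ICAM1+ cells and 321 (265 to 390.2) in CD142+ cells. It was highest in ICAM1+ cells, but only the step from DPP4+ cells passed the test, at 1.65-fold (0.72 ± 0.20, adjusted p = 0.00244). ICAM1+ against CD142+ cells gave 0.45 ± 0.20 (adjusted p = 0.178), and CD142+ against DPP4+ cells gave 0.28 ± 0.20 (adjusted p = 0.420). Together, Tie1, Kdr and Flt1 summed to 798, 1265 and 801 normalised counts in DPP4+, ICAM1+ and CD142+ cells, and with Tek the sums were 3531, 1804 and 1308. The order of the populations thus turned on whether Tek was counted.

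The windows before the starts of Tek and Kdr are shown side by side because these receptor genes had opposite differences between ICAM1+ and DPP4+ cells. Both are usually endothelial, and the cells their reads came from here were not tested. The first is chr4:94739039-94739288, plus strand, and the second is chr5:75978456-75978705, minus strand (RefSeq, GRCm38.p6). Capitals mark the motifs named above, on either strand.
Tek: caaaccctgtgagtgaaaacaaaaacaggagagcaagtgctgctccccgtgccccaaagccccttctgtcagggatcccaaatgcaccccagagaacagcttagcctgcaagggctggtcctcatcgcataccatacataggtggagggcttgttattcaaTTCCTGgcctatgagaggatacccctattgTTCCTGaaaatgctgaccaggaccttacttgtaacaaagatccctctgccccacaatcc
Kdr: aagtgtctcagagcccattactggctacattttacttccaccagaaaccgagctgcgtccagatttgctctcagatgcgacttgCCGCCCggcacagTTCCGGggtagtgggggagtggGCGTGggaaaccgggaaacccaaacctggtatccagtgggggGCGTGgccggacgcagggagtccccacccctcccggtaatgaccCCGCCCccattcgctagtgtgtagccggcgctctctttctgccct
The Tek window was 51.2% G or C and held 2 copies of the ETS core CAGGAA, both on the other strand as TTCCTG, a motif that 25.7% of all windows held. The Kdr window was 61.6% G or C and held 1 ETS core CCGGAA (12.0% of windows), 2 hypoxia element cores GCGTG (28.2%) and 2 GC boxes. Neither held ACGTG, found in 16.6% of windows, or TATAAA, found in 12.4%. RefSeq windows were matched for 8 of the 10 genes, Angpt1 and Angpt2 being the others.

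The spread between libraries can be read from the deposited standard errors, since values per library were not used here. The coefficient of variation this gives was 9.59% to 9.67% for Vegfa, 10.7% to 10.8% for Tek, 12.4% to 12.7% for Kdr and Tie1, 16.2% to 16.7% for Angpt2 and Flt1, and 23.1% to 23.7% for Vegfb. It was lowest for the 2 most abundant of the 10 genes, Vegfa and Tek. DESeq2 draws each gene's dispersion toward a trend over genes, so these are fitted and not raw spreads.

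Ranked per kilobase of exon, Tek led in DPP4+ cells and Vegfa in the other two populations. In DPP4+ cells Tek was at 580.0 normalised counts per kilobase, Vegfa at 393 and Tie1, the next, at 56.4. In ICAM1+ cells Vegfa was at 442, Tek at 114 and Tie1 at 78.4. In CD142+ cells Vegfa was at 316, Tek at 108, Angpt2 at 67.5 and Vegfc at 55.3. Angpt2 thus went from the last place of the 10 genes in DPP4+ cells (12.3) to the third in CD142+ cells. In CD142+ cells the intervals of Angpt2 and Vegfc overlapped, so their places were not separated. Further down, neighbours in the order mostly overlapped in their intervals. Examples are Vegfb (49.2) and Kdr (49.0) in ICAM1+ cells and Tie1 (47.3) and Angpt1 (47.0) in CD142+ cells.

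Since the receptors are usually endothelial, they were set beside 14 endothelial marker genes. Of these, 8 were higher and 1 lower in ICAM1+ than in DPP4+ cells, 1 higher and 1 lower in CD142+ than in DPP4+ cells, and 7 above and none below CD142+ cells in ICAM1+ cells. Their median log2 fold changes were 0.55, -0.15 and 0.61. Of all tested genes, 24.4%, 19.0% and 9.05% were called in these comparisons. None of the 14 was at 0, and their means ran from 34.3 to 761. Their summed level was 3473 normalised counts in DPP4+ cells, 4680 in ICAM1+ cells and 3016 in CD142+ cells, a ratio of 1.35 for ICAM1+ to DPP4+ cells and of 0.868 for CD142+ to DPP4+ cells. Over Tie1, Kdr and Flt1 the same ratios were 1.59 and 1.0. Endothelial transcripts were thus measured in every population, and the part of such cells in the receptor values was not tested. Of 12 stromal markers, which include the sort genes, 3 were higher and 7 lower in ICAM1+ than in DPP4+ cells, 4 higher and 4 lower in CD142+ than in DPP4+ cells, and 9 were lower in ICAM1+ cells when set against CD142+ cells. None had a mean under 488, the 2 most abundant being Col3a1 and Col1a1.

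Set against Pecam1, the endothelial adhesion molecule also called CD31, Tie1, Kdr and Flt1 had ratios whose intervals overlapped between populations, and Tek did not. Pecam1 was at 547, 790.3 and 474 normalised counts in DPP4+, ICAM1+ and CD142+ cells (0.53 ± 0.15 for ICAM1+ against DPP4+ cells, adjusted p = 0.00307). Per kilobase of exon, the ratio of Tie1 to Pecam1 was 0.642 (0.517 to 0.797), 0.618 (0.50 to 0.763) and 0.622 (0.501 to 0.772) in the same order. The ratio of Kdr to Pecam1 was 0.322, 0.386 and 0.359, and that of Flt1 to Pecam1 was 0.223, 0.256 and 0.313, each with overlapping intervals. The ratio of Tek to Pecam1 was 6.6 (5.45 to 8.0) in DPP4+ cells, 0.902 (0.742 to 1.1) in ICAM1+ cells and 1.42 (1.16 to 1.72) in CD142+ cells. Like all intervals of ratios and of differences between genes here, these treat the errors of the genes as independent. Overlap does not show equal ratios.

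**Figure D3:**
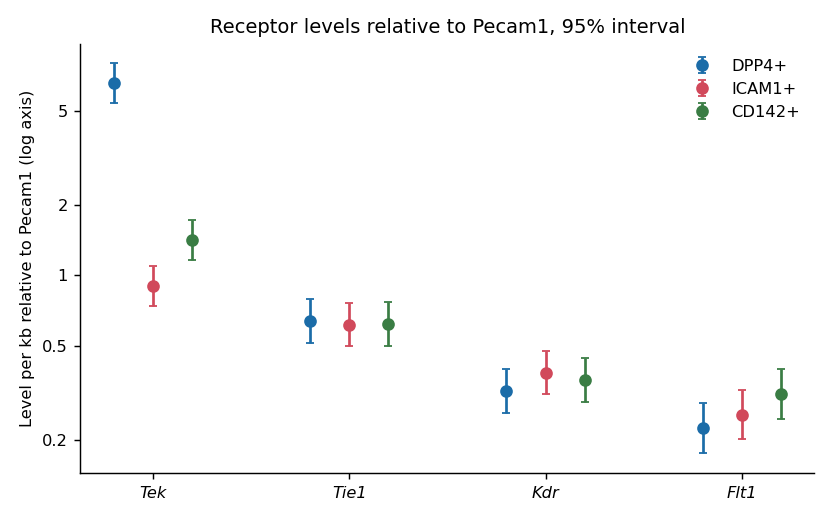
Level per kilobase of each receptor gene relative to Pecam1 in the 3 populations, on a log axis with 95% intervals. Tie1, Kdr and Flt1 keep overlapping ratios, and Tek stands at 6.6 in DPP4+ cells against 0.902 and 1.42 in ICAM1+ and CD142+ cells.

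The difference between the log2 fold changes of Tek and Pecam1 was -2.87 ± 0.20 (95% interval -3.27 to -2.48) for ICAM1+ against DPP4+ cells and -2.22 ± 0.20 (-2.62 to -1.83) for CD142+ against DPP4+ cells. For Tie1 it was -0.06 ± 0.22 (-0.49 to 0.38) and -0.05 ± 0.23 (-0.49 to 0.40), and for Kdr 0.26 ± 0.22 (-0.17 to 0.69) and 0.16 ± 0.22 (-0.28 to 0.60). For Flt1 it was 0.19 ± 0.25 (-0.30 to 0.69) and 0.49 ± 0.25 (-0.01 to 0.99). The intervals of these 3 genes included 0, which does not show equal changes, and that of Flt1 in CD142+ against DPP4+ cells only just did. Between ICAM1+ and CD142+ cells, Tek also fell short of Pecam1, by -0.65 ± 0.20 (-1.05 to -0.25). With Cdh5, the junction protein of endothelial cells, in place of Pecam1, the ratio of Tek was 3.78 (3.17 to 4.52) in DPP4+ cells, 0.486 (0.406 to 0.583) in ICAM1+ cells and 0.698 (0.582 to 0.837) in CD142+ cells. The excess of Tek in DPP4+ cells was thus present against both markers. Against DPP4+ cells, 13 of the 14 markers had a log2 fold change above 0 in ICAM1+ cells and 5 in CD142+ cells. Only 1 was called lower, as Tek was, and it was so in both populations. That gene, Ramp2, an adrenomedullin receptor subunit, fell by 1.22 in ICAM1+ cells and by 1.0 in CD142+ cells on the log2 scale (adjusted p = 1.44e-11 and 4.18e-08). Ramp2 was named after its values were seen.

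**Figure D4:**
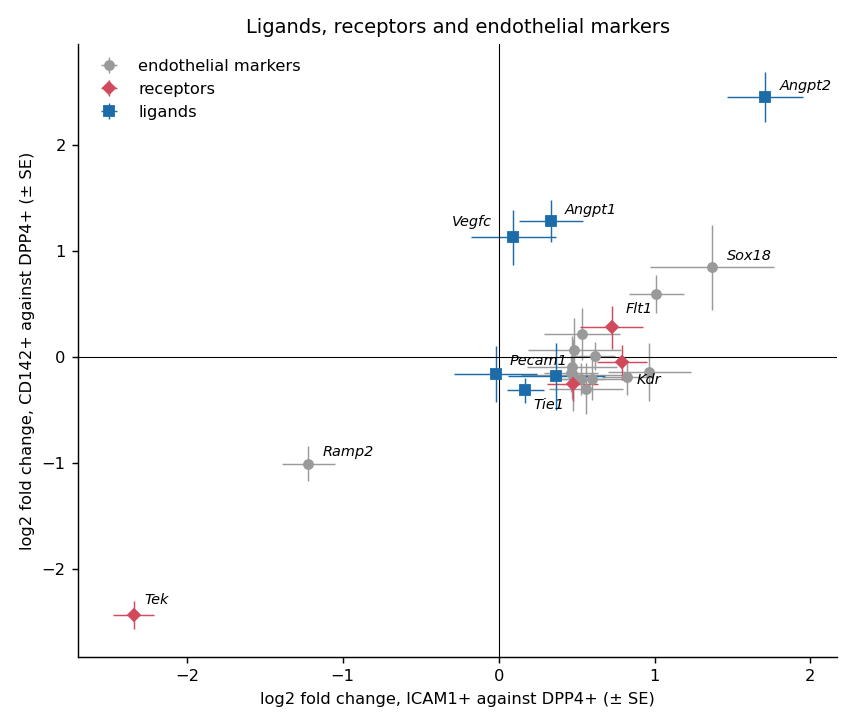
log2 fold change against DPP4+ cells in ICAM1+ cells (x axis) and CD142+ cells (y axis) for the ligands, the receptors and the 14 endothelial markers, with bars of 1 standard error; both axes share the DPP4+ libraries. Tie1, Kdr and Flt1 lie among most of the endothelial markers, and Tek lies apart at -2.34 and -2.43.

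Angpt1 and Angpt2 were higher in CD142+ cells while the endothelial markers mostly were not. Relative to Pecam1, Angpt1 was 1.49 ± 0.25 (95% interval 1.0 to 1.98) higher on the log2 scale for CD142+ against DPP4+ cells and Angpt2 was 2.66 ± 0.28 (2.11 to 3.21) higher. Of 14 mural cell markers, genes of pericytes and smooth muscle, which are textbook sources of angiopoietin 1, 9 were higher and 1 lower in ICAM1+ than in DPP4+ cells, 7 higher and none lower in CD142+ than in DPP4+ cells, and 7 above and 3 below CD142+ cells in ICAM1+ cells. Their summed level was 3822, 13449 and 8720 normalised counts in DPP4+, ICAM1+ and CD142+ cells, and so was highest in ICAM1+ cells, whereas Angpt1 and Angpt2 were highest in CD142+ cells. Of all tested genes, 24.4%, 19.0% and 9.05% were called in these 3 comparisons. The mural list was not uniform. Named after their values were seen, Abcc9 was at 696, 855 and 1639.7 and Ndufa4l2 at 34.6, 97.7 and 230.5 in the same order. Both were highest in CD142+ cells and were called higher there than in either other population. Kcnj8, the remaining marker called below CD142+ cells in ICAM1+ cells, was highest in DPP4+ cells, at 399, 95.9 and 340. The 7 markers called above CD142+ cells in ICAM1+ cells went the other way, such as Rgs5 at 498, 2262 and 805. The most abundant of the 14 were Notch3 (mean 2237) and Pdgfrb (mean 1446). The part of mural cells in the angiopoietin values was not tested.

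Other cell types were followed by the same kind of list. Of all tested genes, 24.4% were called in ICAM1+ against DPP4+ cells. The share was 19.0% in CD142+ against DPP4+ cells and 9.05% in ICAM1+ against CD142+ cells. Of 5 lymphatic endothelial markers, 4 were higher in ICAM1+ than in DPP4+ cells, 2 exceeded CD142+ cells in ICAM1+ cells, and 1, Reln, was lower in CD142+ than in DPP4+ cells. Their sums were 156, 349 and 124 normalised counts in DPP4+, ICAM1+ and CD142+ cells. Of 4 Schwann cell markers, all 4 were higher in ICAM1+ than in DPP4+ cells, and 3 exceeded CD142+ cells in ICAM1+ cells. Only 1, S100b, was higher in CD142+ than in DPP4+ cells, at 78.7 against 25.7 normalised counts. The others had log2 fold changes under 0 there. The sums were 51.2, 179 and 98.1 in DPP4+, ICAM1+ and CD142+ cells. Adipocyte markers summed to 22.6, 267 and 102, and immune markers to 233, 395 and 282. All 4 mesothelial markers had means under 10, and only 3, 2 and 1 of them had an adjusted p in the 3 comparisons. None was called, with 1 of 4 under an unadjusted p of 0.05 in each comparison (DESeq2's Wald test). Of 8 immune markers tested, none was called in ICAM1+ against DPP4+ cells, with 4 at an unadjusted p under 0.05, and 1 was higher in each of the others, Cd3e in CD142+ against DPP4+ cells and Csf1r in ICAM1+ against CD142+ cells. Of 4 adipocyte markers tested, 3, 2 and 2 were higher in the 3 comparisons. ICAM1+ cells had the highest sum for lymphatic, mural, Schwann cell, adipocyte and immune markers, as for Tie1, Kdr and Flt1. Whether these cells had a part in the ligand and receptor values was not tested.

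The wider pathway was described by 24 further genes, all of them tested. In ICAM1+ against DPP4+ cells 9 were higher and 3 lower, in CD142+ against DPP4+ cells 9 higher and 2 lower, and in ICAM1+ against CD142+ cells 5 higher and 3 lower. Their median log2 fold changes were 0.33, -0.12 and 0.11. Of all tested genes, 24.4%, 19.0% and 9.05% were called in these comparisons. The same shares apply to the smaller lists of pathway genes below. Genes are named below by a rule of size and abundance, and those outside it are said to be so.

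Of the other ligands, Pgf, which encodes placental growth factor, a ligand of FLT1, had its highest level in DPP4+ cells. It was at 161 (125 to 208) normalised counts there, 48.8 (36.3 to 65.5) in ICAM1+ cells and 56.5 (42.8 to 74.7) in CD142+ cells. DPP4+ cells were 3.30-fold above ICAM1+ cells (adjusted p = 3.53e-08) and 2.85-fold above CD142+ cells (adjusted p = 9.78e-07). Among the VEGF family genes measured, Pgf alone was called lower in both populations than in DPP4+ cells. Angpt4, outside the naming rule, had a mean of 7.79 and was called higher in CD142+ than in DPP4+ cells on few counts (3.42 ± 1.02, adjusted p = 0.00603).

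Of 4 further receptor genes, 2 were higher in ICAM1+ and in CD142+ than in DPP4+ cells, Nrp1 and Ptprb, and 3 were higher in ICAM1+ than in CD142+ cells. Nrp1, which encodes neuropilin 1, a co-receptor of VEGF-A and semaphorins, rose from 492 (423 to 573) in DPP4+ cells to 1473 (1273 to 1703) in ICAM1+ cells and 1906 (1649.8 to 2201) in CD142+ cells. It was 2.99-fold and 3.87-fold above DPP4+ cells (adjusted p = 8.09e-23 and 8.88e-35), and ICAM1+ and CD142+ cells were not distinguished (-0.37 ± 0.15, adjusted p = 0.112). Nrp2, the co-receptor of VEGF-C, was called only between ICAM1+ and CD142+ cells (0.64 ± 0.15, adjusted p = 0.000336). Flt4, the VEGF-C receptor of lymphatic endothelium, had a mean of 29.0 and was also called only there (1.30 ± 0.42, adjusted p = 0.0281). Ptprb, which encodes the endothelial phosphatase of TIE2, was highest in ICAM1+ cells, at 434, 790.3 and 582 in DPP4+, ICAM1+ and CD142+ cells, and passed in all 3 comparisons.

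Of 6 genes that process VEGF-C or shape its response, 2 were higher in ICAM1+ and 3 in CD142+ than in DPP4+ cells, and 2 were lower in ICAM1+ cells when set against CD142+ cells. Svep1, which encodes a large matrix protein needed for lymphatic vessel remodelling, was at 495 (439 to 559), 3315 (2967 to 3705) and 3997 (3579 to 4465) in DPP4+, ICAM1+ and CD142+ cells. It was 6.70-fold higher in ICAM1+ and 8.07-fold higher in CD142+ than in DPP4+ cells (adjusted p = 6.72e-111 and 5.65e-134). Outside the rule, Ccbe1 and Adamts3, a cofactor and a protease that together activate VEGF-C, were named after their values were seen. Ccbe1 was at 4.21, 28.3 and 132 in the same order, and it was called in all 3 comparisons. Adamts3 was at 26.1, 32.0 and 73.3 and was higher in CD142+ than in DPP4+ cells (1.49 ± 0.39, adjusted p = 0.0011) and was below that level in ICAM1+ cells (-1.19 ± 0.38 against CD142+ cells, adjusted p = 0.0235). The proprotein convertase genes Furin, Pcsk5 and Pcsk7, also outside the rule, passed in none of the comparisons, and at an unadjusted p under 0.05 1 of the 3, Pcsk5, passed in ICAM1+ against DPP4+ cells.

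**Figure D5:**
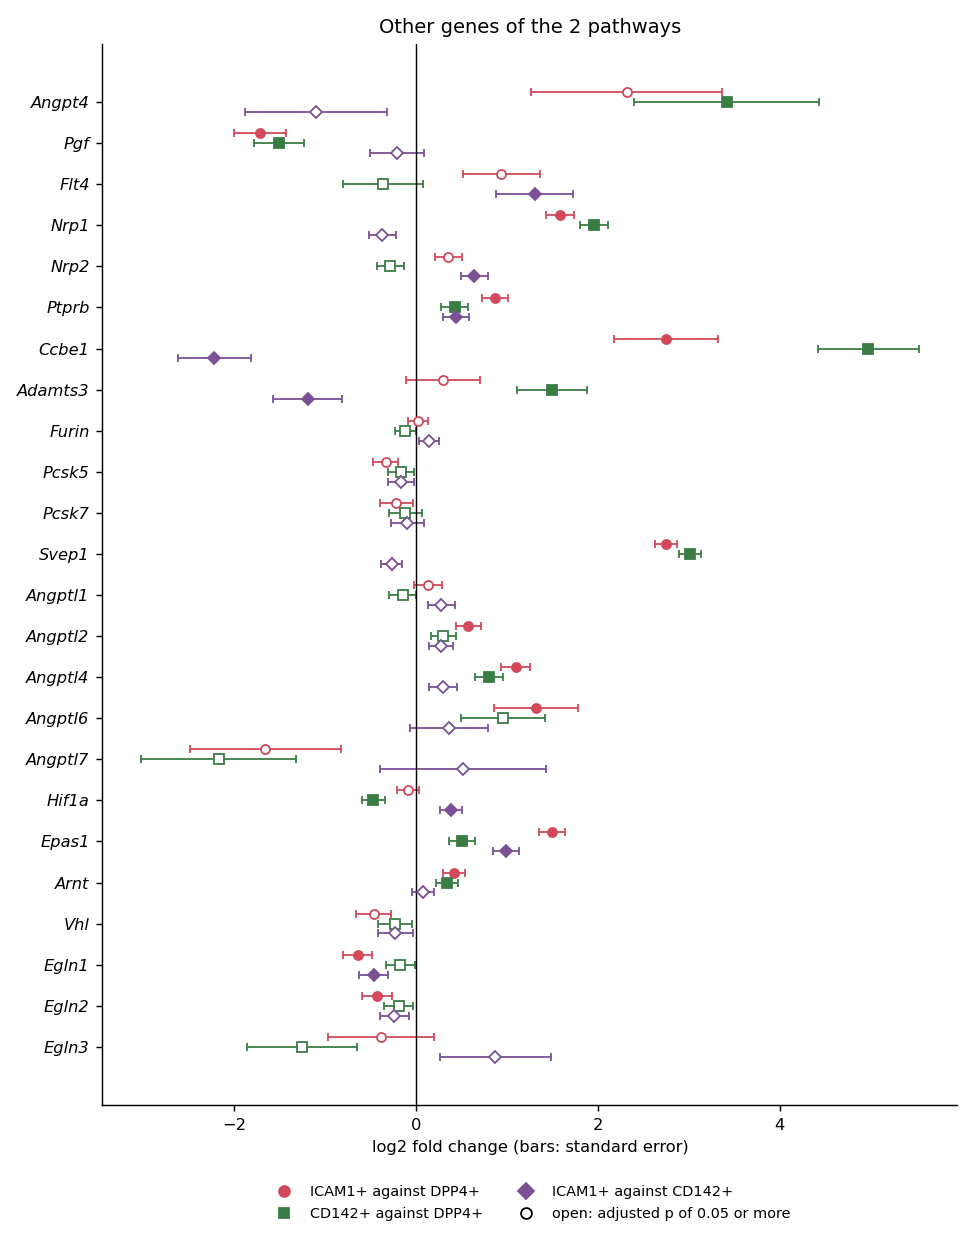
log2 fold change of 24 further genes of the pathways in the 3 comparisons, with bars of 1 standard error; filled symbols have an adjusted p under 0.05. Ccbe1, Svep1 and Nrp1 lie furthest right for the comparisons with DPP4+ cells among the genes called in both, and Pgf lies at -1.72 and -1.51.

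Among 5 angiopoietin-like genes, whose proteins are related to angiopoietins in sequence but do not bind TIE2, 3 were higher in ICAM1+ and 1 in CD142+ than in DPP4+ cells. Angptl4, which encodes an inhibitor of lipoprotein lipase, was at 759.5, 1619 and 1319 in DPP4+, ICAM1+ and CD142+ cells, and was called in both comparisons with DPP4+ cells (1.09 ± 0.16 and 0.80 ± 0.16, adjusted p = 4.56e-11 and 4.32e-06). Of 7 regulators of the hypoxia response, which controls Vegfa in many cells, 2 were higher and 2 lower in ICAM1+ than in DPP4+ cells. Epas1, which encodes the hypoxia-inducible factor abundant in endothelium, was at 605 (525 to 698) in DPP4+ cells, 1707 (1488 to 1958) in ICAM1+ cells and 859 (747 to 987) in CD142+ cells, and passed in all 3 comparisons. Egln1, the oxygen-sensing hydroxylase that marks these factors for breakdown, was lower in ICAM1+ than in DPP4+ cells (-0.64 ± 0.16, adjusted p = 0.000501) and than in CD142+ cells (-0.47 ± 0.16, adjusted p = 0.0408).

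The genes with the most similar pair of log2 fold changes against DPP4+ cells were sought for each of the 7 ligand and receptor genes whose mean reached 100, among 7942 genes, by Euclidean distance over the 3 populations. For Tek the nearest were Mcf2l (distance 0.15), Stxbp6 (0.27) and Lims2 (0.31). For Angpt2 they were Rasl11a (0.04), Prcd (0.13) and Sema3f (0.19), and for Angpt1 they were Cst3, the mural marker Abcc9, and Id3 (0.05 to 0.08). For Kdr they were Fgfrl1, Adgrl4 and Zfp618 (0.05 to 0.08), for Tie1 Aqp1, Trp53i11 and Zfp687 (0.02 to 0.05), for Vegfa Il17ra, Med26 and Acly (0.01 to 0.03), and for Flt1 Mospd1, Urb1 and Thoc6 (0.01 to 0.03). Tek had the most distant neighbours of the 7 genes, and 3 populations give few dimensions in which patterns can differ.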

How the data were processed

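Sorted cells were lysed and, per the labels, polyadenylated RNA was enriched, fragmented, primed at random for cDNA and read as paired ends. In the submitters' processing notes the tools are STAR 2.5.2a, R 3.5.1 and DESeq2, its version not stated, with build mm10. Neither annotation release nor strand setting is given in the sources used here. Deposited were 3 pairwise tables of 20659 rows, 4 of them summary classes (59.6% of the summed means, 46.5% in no feature) that were left out here but stayed in the authors' fit. The deposited mean is a signal, namely size-factor-normalised counts averaged by the authors over all 9 libraries. The authors' DESeq2 fit gave the log2 fold changes with standard errors, a Wald score was deposited beside them, and the p-values and adjusted p-values (Benjamini and Hochberg) are the authors' too. These columns are the authors' own comparisons, and no count model was refitted. Depth per library is unknown, so precision is given by the standard errors alone. The adjusted p was empty for 2804, 3205 and 4807 genes.

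For each of 20655 genes, the fitted level per population was computed as the level whose mean over 3 equal groups gives the deposited mean, and its variance from the 3 standard errors. The 3 fold changes summed within 0.01 for 20612 genes. Symbols, coordinates and exon lengths came from GENCODE M21 (GRCm38, also called mm10), which named 20618 genes, and promoter windows from RefSeq (GRCm38.p6). The computation was tested on simulated data (Python 3.11.15, numpy 2.4.6, pandas 2.3.3, scipy 1.17.1). The 10 genes, the 24 pathway genes and the marker lists were chosen with earlier results of these data known. Named are the 10 genes, per comparison up to 4 called pathway genes with a mean of 100 or more and the largest change, Pgf, Flt4, Nrp1 and Nrp2, the 2 most abundant genes of a marker list, Pecam1 and Cdh5, the sort genes and the 3 nearest neighbours. Alternatives were adjusted p of 0.01 and 0.1, other sets for adjustment, an absolute log2 fold change above 1, a Wald test with 1 as null, and re-centring. Groups follow the labels. For 1 marker list, 2 genes are not reported here.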

Additional observations from a re-analysis of the deposited data

How the results depend on the processing

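Of 210 alternative values for single genes, 182 kept their direction and side of the threshold, 26 lost the call in the same direction and 2 reversed. Only re-centring could change a direction, since every other setting kept the deposited fold changes. Settings that only made the threshold stricter could not add a call, so much of this agreement was fixed in advance. With a minimum absolute log2 fold change of 1, the genes called among the 10 went from 5 to 2 for ICAM1+ against DPP4+ cells (Angpt2 and Tek) and from 6 to 1 for ICAM1+ against CD142+ cells (Vegfc). Tested against a log2 fold change of 1 and adjusted over every gene, 1 was called for ICAM1+ against DPP4+ cells (Tek), 2 for CD142+ against DPP4+ cells (Angpt2 and Tek) and 0 for ICAM1+ against CD142+ cells, also 0 at an unadjusted p under 0.05 (Wald test on the DESeq2 estimates). Over all genes, the 4358, 3312 and 1434 calls became 2143, 1720 and 554 with the minimum of 1 (12.0%, 9.86% and 3.5% of the 17851, 17450 and 15848 genes tested) and 681, 549 and 66 in the test against 1 (3.30%, 2.66% and 0.320% of 20655 genes), and an adjusted p under 0.01 left 950 (5.99% of genes tested) for ICAM1+ against CD142+ cells. The reversed values are uncalled and near 0. After re-centring on genes whose mean reached 100, also adjusted over every gene, Vegfd was at 0.047 for ICAM1+ against DPP4+ cells and Kdr at 0.0026 for CD142+ against DPP4+ cells. Re-centring moved no comparison by more than 0.07. Vegfa in CD142+ against DPP4+ cells also lost its call at an adjusted p of 0.01, as did Tie1 in ICAM1+ against DPP4+ cells. The background of genes whose mean reached 50 was chosen after seeing the data. No paired analysis was possible because values per library were not used here, and for the same reason no library could be left out.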
